A study of Mus musculus with 20 samples.

Results

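The CD300 receptor family was examined in RNA sequencing of hippocampus and neocortex from miR-324-null and WT mice. It was followed through 6 genes, *Cd300lf*, *Cd300a*, *Cd300c2*, *Cd300ld*, *Cd300lb* and *Cd300lg*, out of 35580 genes quantified, and the values of all annotated transcripts of a gene were summed. The family was chosen by the higher level of *Cd300lf* in both tissues of the miR-324-null mice, so that difference is described here without a test. The other 5 genes were taken because they belong to the same family. A further 6 genes with a *Cd300* symbol (*Cd300c*, *Cd300e*, *Cd300ld2*, *Cd300ld3*, *Cd300ld4* and *Cd300ld5*) were used for comparison only.

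There were 20 samples in 4 groups of 5: WT hippocampus, miR-324-null hippocampus, WT neocortex and miR-324-null neocortex. All came from C57BL/6J mice aged 13.5 months. The mice were male. The miR-324-null allele is a CRISPR/Cas9 deletion at the *Mir324* locus on chromosome 11, carried by every cell of the animal. WT and miR-324-null mice were kept as separate lines, both derived from heterozygotes after backcrossing to C57BL/6J, and CBA/ca had contributed to the founders' background. Genotype and line therefore cannot be told apart. Nothing in the labels said which hippocampal and neocortical samples shared an animal.

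CD300 proteins are immunoglobulin-like receptors on the surface of myeloid cells and some endothelial cells. Several bind lipids such as phosphatidylserine and phosphatidylethanolamine, which become exposed on dying cells. Inhibitory members carry tyrosine motifs in their tails that recruit the phosphatases SHP-1 and SHP-2, whereas activating members have short tails and signal through adaptors with activating motifs, such as DAP12 (encoded by *Tyrobp*) or the Fc receptor gamma chain (encoded by *Fcer1g*). In the brain the myeloid members are known mainly from microglia and infiltrating myeloid cells. A microRNA (miRNA) represses mRNAs whose 3′ untranslated region (3′UTR) pairs with bases 2 to 8 of the miRNA, its seed.

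The miRNAs lost from the null allele are shown first, because the match of the CD300 genes to their seeds is described next. Both mature sequences come from RefSeq on GRCm38.p6, 5′ to 3′ on the plus strand, with the seed in capitals. The 5p arm lies at chr11:70012060-70012082 and the 3p arm at chr11:70012095-70012114.
miR-324-5p: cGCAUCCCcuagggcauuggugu
miR-324-3p: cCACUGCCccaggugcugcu

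*Cd300lf*, *Cd300a*, *Cd300ld* and no other member held a 3′UTR match to bases 2 to 8 of either arm. The motifs searched were GGGATGC for miR-324-5p and GGCAGTG for miR-324-3p, on the transcript strand only, in the 3′UTRs of the GENCODE vM21 protein-coding transcripts. *Cd300lf* held 2 matches to miR-324-5p in a 3′UTR of 760 bases, at chr11:115116730-115116757 and chr11:115116387-115116414 on the minus strand of GRCm38. The second was followed by an A, which makes it an 8-base match. *Cd300a* held 1 match to miR-324-5p in a 3′UTR of 3364 bases, at chr11:114903363-114903390 on the plus strand, and *Cd300ld* held 1 match to miR-324-3p at chr11:114982592-114982619 on the minus strand. The windows are printed 5′ to 3′ along the transcript, with the 7 bases complementary to the seed in capitals.
Cd300lf, first: caggcaggctgcttcaGGGATGCtgtgt
Cd300lf, second: agaagcagaaggtggaGGGATGCagaag
Cd300a: cttaagaggggaagtaGGGATGCtgtgg
Cd300ld: tagagcctgtaggtcaGGCAGTGgtagc

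Such matches are uncommon at the length of the *Cd300lf* 3′UTR and ordinary at that of *Cd300a*. Of 1213 genes whose longest 3′UTR was within 10% of the length of that of *Cd300lf*, 3.71% held at least 1 match to miR-324-5p and 0.33% held 2 or more. For *Cd300a* the share with at least 1 match was 15.8% of 994 genes, and for *Cd300ld* and miR-324-3p it was 19.1% of 1453 genes. A match of letters is a description of the sequence and does not show binding.

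Of the 6 genes, 5 lie together near the far end of chromosome 11 and *Cd300lg* lies apart. On GRCm38, *Cd300a* spans chr11:114890041-114904654 on the plus strand, and *Cd300lb* (chr11:114922781-114934386), *Cd300ld* (chr11:114982274-114989922), *Cd300c2* (chr11:114996721-115001880) and *Cd300lf* (chr11:115116214-115133992) follow on the minus strand. *Cd300lg* spans chr11:102041509-102055620 on the plus strand. *Mir324* itself is at chr11:70012043-70012131, 44.9 to 45.1 Mb from the cluster and 32.0 Mb from *Cd300lg*. *Cd300lf* lies wholly within *Rab37* (chr11:115091431-115162236), a gene for a small GTPase transcribed from the opposite strand. No annotated exon of one overlapped an exon of the other. The library kit keeps strand, but whether quantification used it is not given in the sources used here, so reads of the 2 genes within introns could not be told apart with certainty.

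Total estimated counts ran from 12752439 to 19617765 per sample. *Mir324* was not among the transcripts used here, so the genotype labels were not checked by its level. All 5 hippocampal markers were lower in neocortex and 4 of 5 neocortical markers were higher there, in both genotypes. Between genotypes in neocortex, 3 of 4 tested hippocampal markers had positive log2 fold changes (*C1ql2* at 1.25, *Prox1* at 0.47) and 5 of 5 neocortical markers negative ones (median -0.22). Of these, 3 and 2 had an unadjusted p below 0.05 by edgeR, which called 0 after adjustment, and DESeq2 called *Prox1*. In the summed level of 5 choroid plexus markers, 2 hippocampal libraries stood apart: WT replicate 3 held 4532 CPM (read counts scaled to the library total) and miR-324-null replicate 5 held 3898 CPM, against 39.7 to 138.2 CPM in the other 8. Among neocortical libraries miR-324-null replicate 2 held 799 CPM, against 15.0 to 63.3 CPM in the other 9. The summed level of 5 striatal markers was 92.9 to 243 CPM in WT neocortex but 152 to 393 CPM in miR-324-null neocortex, and 5 of 5 had an unadjusted p below 0.05 between genotypes there by edgeR, with 0 called. Of the choroid plexus markers 3 of 3 tested did so too, with log2 fold changes of 1.54 to 2.94 and 0 called by edgeR, and DESeq2 called *Clic6*. Of all genes tested between genotypes in neocortex, 12.2% had an unadjusted p below 0.05 and 0.315% were called, both by edgeR. The part of these marker differences in the results was not tested.

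The members differed widely in level. On the scale of TPM, transcript abundance corrected for transcript length, *Cd300c2* had the highest median over the 20 samples, 5.28 TPM with a range of 4.14 to 7.40. It was followed by *Cd300lf* at 1.58 TPM (0.28 to 2.55), *Cd300lg* at 0.887 TPM (0.499 to 1.88) and *Cd300a* at 0.860 TPM (0.704 to 1.95). *Cd300ld* had a median of 0.0986 TPM and *Cd300lb* of 0.0404 TPM. The family was thus weakly expressed: among 15852 genes with a count in every sample, the median of *Cd300c2* was above that of 30.9% and the median of *Cd300lf* above that of 16.1%.

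The order of the members was the same in all 4 groups only at its top. *Cd300c2* was above every other member in all 20 samples, with no overlap in any of the 4 groups. In WT hippocampus and WT neocortex the ranges of *Cd300lf*, *Cd300a* and *Cd300lg* overlapped, so these 3 could not be ordered. In miR-324-null hippocampus *Cd300lf* (1.76 to 2.24 TPM) stood clear of *Cd300lg* (0.516 to 1.11 TPM) and *Cd300a* (0.704 to 0.903 TPM), and in miR-324-null neocortex *Cd300lf* (1.66 to 2.55 TPM) overlapped only with *Cd300lg* (0.543 to 1.88 TPM) among its neighbours. Of the lowest 2, *Cd300ld* was above *Cd300lb* without overlap in WT hippocampus, whereas their ranges overlapped in the other 3 groups. The other 6 *Cd300* genes held medians of 0.238 TPM or less, and *Cd300c* was at 0 counts in 19 of 20 samples. *Cd300ld3* and *Cd300ld5* had the same estimated count in every sample, so their values are not separate measurements.

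**Figure D1:**
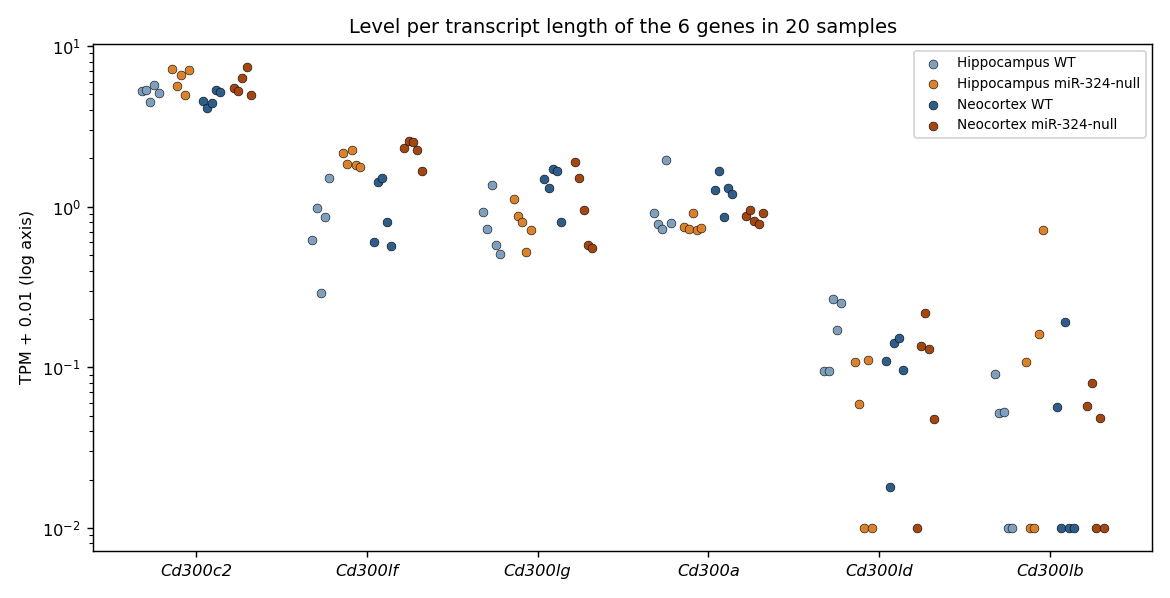
TPM of the 6 CD300 genes (log axis after adding 0.01, so that samples at 0 can be drawn), with 1 point for each of the 20 samples and colours for the 4 groups. Cd300c2 sits highest with a median of 5.28 TPM, and Cd300ld and Cd300lb sit lowest with medians of 0.0986 and 0.0404 TPM.

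*Cd300lf* encodes an inhibitory receptor that binds ceramide, sphingomyelin and phosphatidylserine. Its normalised counts in WT hippocampus were 0.787, 0.976, 0.327, 1.03 and 1.58 CPM. The miR-324-null hippocampal samples held 2.63, 2.29, 2.35, 2.02 and 2.10 CPM. Every miR-324-null hippocampal sample was above every WT one, and the lowest WT value belonged to replicate 3, one of the libraries rich in choroid plexus markers.

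The neocortex showed the same separation. The WT neocortical samples held 0.681, 1.51, 1.45, 0.974 and 0.824 CPM of *Cd300lf*. The miR-324-null neocortical samples held 2.54, 2.82, 2.85, 2.46 and 1.96 CPM. Again the 2 groups did not overlap, and the lowest miR-324-null value was that of replicate 5.

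The hippocampal means of *Cd300lf* were 0.939 ± 0.452 CPM for WT and 2.28 ± 0.241 CPM for miR-324-null mice (SD, n = 5 each), a ratio of 2.43. The neocortical means were 1.09 ± 0.371 CPM and 2.53 ± 0.358 CPM (SD, n = 5 each), a ratio of 2.33. The fitted log2 fold changes were 1.29 (SE 0.30) and 1.22 (SE 0.23). Groups that did not overlap, with the miR-324-null group higher, occurred for 1.3% of 14796 genes in hippocampus, 1.08% of 14930 genes in neocortex and 0.137% of 14588 genes in both, and *Cd300lf* is among them because it was chosen for this. Without both libraries rich in choroid plexus markers, an alternative added after seeing the data, the hippocampal log2 fold change was 1.10 (SE 0.24). Without neocortical miR-324-null replicate 2 the neocortical one was 1.17 (SE 0.25). The difference between the log2 fold changes of the 2 tissues was -0.08 (SE 0.38, neocortex minus hippocampus).

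The depth behind these values was small. *Cd300lf* rested on 5.35 to 21.4 estimated counts in each WT hippocampal sample and 27.1 to 37.6 in each miR-324-null one. Its neocortical values rested on 9.98 to 21.9 counts for WT and 35.4 to 55.5 counts for miR-324-null mice.

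**Figure D2:**
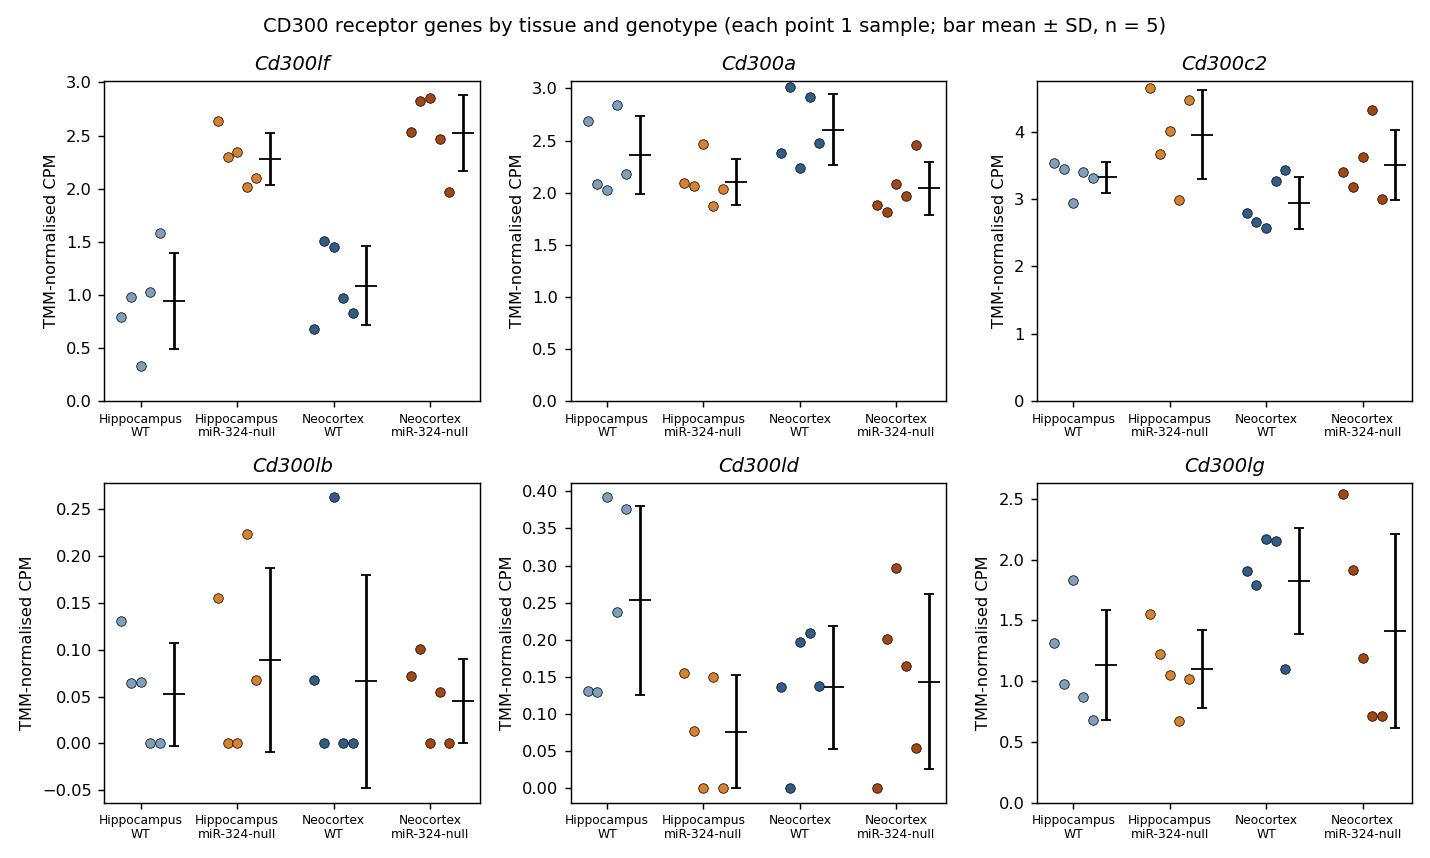
Normalised CPM of each CD300 gene in the 4 groups, with 1 point per sample and the mean ± SD of 5 samples beside it. The miR-324-null points of Cd300lf lie above all WT points in both tissues, at means of 2.28 and 2.53 CPM against 0.939 and 1.09 CPM, and no other gene shows groups that are apart by genotype.

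The transcripts to which *Cd300lf* counts were assigned also differed between the genotypes. The annotation gives 3 protein-coding transcripts. The first and the second (ENSMUST00000106561 and ENSMUST00000051264) hold an exon at chr11:115124248-115124377 or its shorter form ending at 115124356, between the exon for the immunoglobulin-like domain and the exons that follow it. The third (ENSMUST00000106562) lacks that exon and extends the preceding exon by 7 bases, from 342 to 349 bases.

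All coding counts of the WT samples were assigned to the transcript without the exon. The forms with the exon had 0 counts in 10 of 10 WT samples, against 107 counts for the form without it. In 7 of 10 miR-324-null samples the forms with the exon were present, with 171 counts over all 10 samples against 103 for the form without, a share of 62.5%. These are assigned shares of reads among similar transcripts, so the 0 gives no limit on the exon's use in WT.

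Per sample, the forms with the exon held 12.5, 22.9, 30, 0 and 0 estimated counts in miR-324-null hippocampus. The miR-324-null neocortical samples held 0, 19.5, 35.7, 23.4 and 26.9 counts. In 3 null samples all coding counts lay on the form without the exon, as in WT. In null hippocampal replicates 2 and 3 and null neocortical replicates 3 and 5, that form held 0.0209, 0, 0 and 0 counts. The null samples thus ranged from almost none to all of their coding counts on it. That form averaged 10.6 ± 6.02 counts (WT) and 10.9 ± 10.5 counts (miR-324-null) in hippocampus, and 10.9 ± 5.88 and 9.62 ± 10.1 counts in neocortex (SD, n = 5 each). The pattern was noticed after the values were seen and carries no test.

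A non-coding transcript of 3929 bases (ENSMUST00000146254) showed the same direction as the gene. Its second exon, chr11:115124248-115126452, keeps the intron that lies before the exon in question and holds that exon too. Its hippocampal counts were 0 to 5.03 for WT and 6.54 to 9.17 for miR-324-null mice. Its neocortical counts were 2.01 to 6.73 for WT and 9.43 to 17.5 for miR-324-null mice. Neither tissue showed overlap between genotypes. As a share of the counts of *Cd300lf* the hippocampal values were 24.8 ± 17.1% for WT and 24.6 ± 4.52% for miR-324-null mice, and the neocortical ones 33.2 ± 17.1% and 29.1 ± 3.81% (SD, n = 5 each). With only the protein-coding transcripts summed, the log2 fold changes of the gene were 1.22 (SE 0.35) for hippocampus and 1.24 (SE 0.31) for neocortex.

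**Figure D3:**
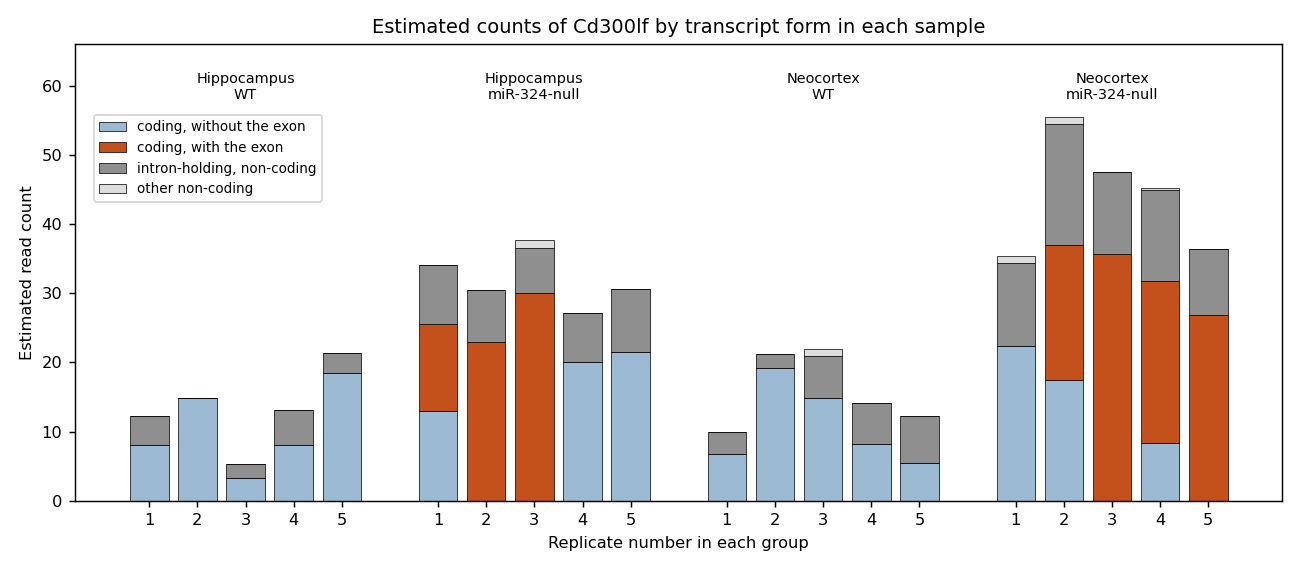
Estimated read counts of Cd300lf in each of the 20 samples, stacked by transcript form. The coding forms with the exon appear in 7 of 10 miR-324-null samples and in 0 of 10 WT samples, and the intron-holding form is present at 6.54 to 17.5 counts in every miR-324-null sample.

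The division of reads among similar transcripts is an estimate. *Cd300a* shows how far it can swing: its 2 coding transcripts differ by 12 bases (4633 and 4645 bases long), and in 18 of 20 samples over 90% of their counts went to 1 of the 2. The mean share of the longer one was 54.0 ± 49.4% (WT) and 40.7 ± 54.1% (miR-324-null) in hippocampus, and 53.8 ± 49.7% and 41.0 ± 53.9% in neocortex (SD, n = 5 each). Of the distinct 31-base stretches of *Cd300lf* transcripts, 2.77% also occur in another *Cd300* gene or in *Rab37*, 133 of them in *Cd300ld*. For *Cd300c2* the share was 12.3%, 129 of them in *Cd300a*. *Cd300lb* and *Cd300lg* shared none.

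*Cd300a*, the other inhibitory member and a receptor for phosphatidylserine and phosphatidylethanolamine, did not follow *Cd300lf*. The WT hippocampal samples held 2.69, 2.08, 2.02, 2.84 and 2.18 CPM of *Cd300a*, and the miR-324-null ones 2.09, 2.06, 2.47, 1.87 and 2.03 CPM, with wide overlap. The WT neocortical samples held 2.38, 3.01, 2.24, 2.92 and 2.47 CPM, and the miR-324-null ones 1.88, 1.81, 2.08, 1.97 and 2.46 CPM. Of the 5 miR-324-null neocortical samples 4 lay below all WT samples.

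Neither difference of *Cd300a* passed the test. The log2 fold change was -0.16 (95% interval -0.51 to 0.20) in the hippocampus, for which the quasi-likelihood test of edgeR gave an adjusted p = 0.779. With average transcript length as an offset it was -0.38 in edgeR (adjusted p = 0.696) and in DESeq2 (adjusted p = 0.780). Leaving out single libraries moved the hippocampal value between -0.22 (without miR-324-null replicate 3) and -0.086 (without WT replicate 4). For the neocortex edgeR gave -0.35 (95% interval -0.69 to -0.01), with an unadjusted p = 0.0463 that became 0.399 after adjustment. With the length offset in edgeR the neocortical log2 fold change was -0.58 (adjusted p = 0.339), and over all alternatives the adjusted p ran from 0.192 to 0.606.

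Of the activating members, *Cd300c2* was the most abundant. Its receptor pairs with DAP12 or the Fc receptor gamma chain. The WT hippocampal samples held 3.54, 3.45, 2.94, 3.40 and 3.31 CPM, and the miR-324-null ones 4.65, 3.67, 4.01, 2.99 and 4.48 CPM, of which 4 lay above all WT values. The WT neocortical samples held 2.79, 2.65, 2.56, 3.27 and 3.43 CPM, and the miR-324-null ones 3.41, 3.17, 3.62, 4.33 and 3.0 CPM. Its groups overlapped in both tissues.

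The log2 fold change of *Cd300c2* was 0.26 for hippocampus (95% interval -0.06 to 0.57) and 0.26 for neocortex (95% interval -0.07 to 0.58), with adjusted p-values of 0.534 and 0.530 by edgeR. Without both choroid-rich libraries the hippocampal value was 0.16 (SE 0.16). Part of its counts went to a transcript annotated as a target of nonsense-mediated decay, with a median share of 40.7% (range 0 to 53.7%) for WT against 0% (range 0 to 20.2%) for miR-324-null hippocampus. The neocortical median shares were 47.0% (0 to 52.2%) and 8.69% (0 to 33.4%). With the coding transcript alone, the log2 fold changes were 0.74 (adjusted p = 0.319) and 0.59 (adjusted p = 0.292) by edgeR, an alternative chosen after seeing the data. Over all alternatives the adjusted p ran from 0.319 to 0.745 in hippocampus and from 0.292 to 0.772 in neocortex.

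*Cd300ld* and *Cd300lb* were near the limit of detection and did not pass the filter on low counts. *Cd300ld*, an activating receptor coupled to the Fc receptor gamma chain, held 46.1 estimated counts over all 20 samples and at most 6 in any of them. The WT hippocampal samples held 0.131, 0.130, 0.392, 0.237 and 0.376 CPM, and the miR-324-null ones 0.155, 0.0765, 0, 0.149 and 0 CPM, of which 3 lay below all WT values. The WT neocortical samples held 0.136, 0, 0.197, 0.209 and 0.137 CPM, and the miR-324-null ones 0, 0.202, 0.297, 0.164 and 0.0546 CPM. Both pairs of groups overlapped.

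*Cd300lb*, which encodes a DAP12-coupled activating receptor, held 0 to 4 counts per sample and 19 counts over all 20 samples. It was at 0 in 9 samples. Both genes were compared by exact two-sided permutation tests on CPM, 8 tests in all, for which 5 against 5 samples allow no p below 0.00794. The smallest p was that of *Cd300ld* between genotypes in the hippocampus, where the means were 0.253 ± 0.127 CPM (WT) and 0.0762 ± 0.0761 CPM (miR-324-null; SD, n = 5 each, exact permutation p = 0.0476). Without any one of 6 of the 10 libraries the exact permutation p was 0.0952. Fitted with all genes and no filter, it had an adjusted p = 0.546 by edgeR. The other 7 exact p-values lay between 0.151 and 0.881. At a few counts per sample these comparisons could show only large differences.

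*Cd300lg* encodes the endothelial member of the family, a mucin-like ligand of L-selectin. The WT hippocampal samples held 1.31, 0.976, 1.83, 0.869 and 0.676 CPM, and the miR-324-null ones 1.55, 1.22, 1.05, 0.672 and 1.02 CPM. The WT neocortical samples held 1.91, 1.79, 2.17, 2.16 and 1.10 CPM, and the miR-324-null ones 2.54, 1.92, 1.19, 0.712 and 0.709 CPM. The null neocortical values had the widest spread, with 1 sample above and 2 below all WT values.

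Its genotype difference was -0.05 on the log2 scale in the hippocampus (95% interval -0.70 to 0.60, adjusted p = 0.974) and -0.39 in the neocortex (95% interval -1.14 to 0.36, adjusted p = 0.708), both by edgeR. Without both choroid-rich libraries the hippocampal value was 0.21 (SE 0.32). The neocortical value was -0.68 without miR-324-null replicate 1, -0.22 without replicate 4 and -0.21 without replicate 5.

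Across the 5 members other than *Cd300lf*, 3 were tested in each tissue and 0 were called between genotypes by edgeR at an adjusted p of 0.05 or less. Of all genes tested, 0.115% were called for hippocampus and 0.315% for neocortex, and a count of 0 among 3 does not stand apart from such a background. At an unadjusted p below 0.05 the count was 0 for hippocampus and 1 for neocortex (*Cd300a*), where 11.1% and 12.2% of all genes tested lay below it, shares that also stand behind the list counts given further on, and DESeq2's Wald test called 0 in both. For the difference between the tissues' genotype effects edgeR called 0 of the 3, against 0.0195% of all genes, with 0 at an unadjusted p below 0.05 (5.57% of all genes) and 0 by DESeq2. The log2 interaction terms were -0.20 (SE 0.21) for *Cd300a*, -0.01 (SE 0.20) for *Cd300c2* and -0.34 (SE 0.49) for *Cd300lg*.

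**Figure D4:**
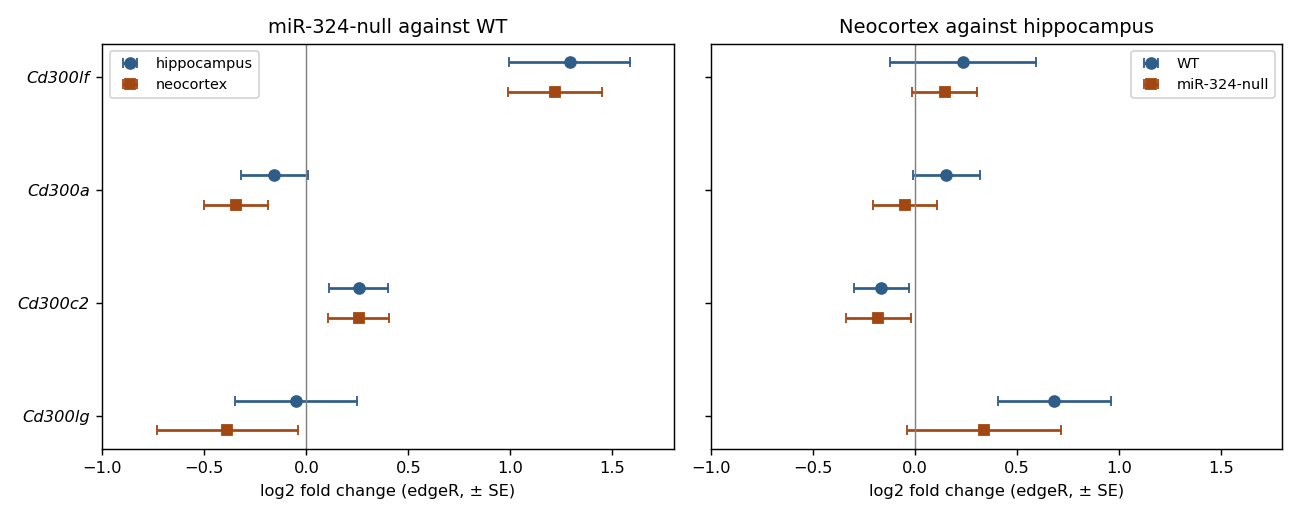
Fitted log2 fold changes of the 4 CD300 genes that passed the filter on low counts, with 1 SE on each side, for miR-324-null against WT (left) and neocortex against hippocampus (right). Cd300lf stands at 1.29 and 1.22 between genotypes, and the 3 others lie between -0.39 and 0.26.

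Between neocortex and hippocampus no tested member passed the test fixed for this comparison. Between the tissues 36.1% of all genes tested were called for WT and 27.4% for miR-324-null mice, and 0 of 4 tested members were called for either genotype by edgeR or by DESeq2. A count of 0 among 4 does not set the members apart from these shares. At an unadjusted p below 0.05 edgeR gave 1 for WT (*Cd300lg*) and 0 for miR-324-null mice, where 44.1% and 38.5% of all genes lay below it. The tissue difference of *Cd300lf* was 0.24 on the log2 scale for WT (95% interval -0.54 to 1.01, adjusted p = 0.656 by edgeR), and leaving out single libraries moved it between 0.0037 (without hippocampal replicate 3) and 0.49 (without hippocampal replicate 5). For miR-324-null mice it was 0.15 (95% interval -0.20 to 0.49, adjusted p = 0.542 by edgeR).

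*Cd300lg* came nearest to a tissue difference. Among WT mice its mean was 1.82 ± 0.437 CPM in neocortex and 1.13 ± 0.453 CPM in hippocampus (SD, n = 5 each), a log2 fold change of 0.68 (SE 0.28, adjusted p = 0.0718 by edgeR). Of the 5 neocortical samples 3 lay above all hippocampal ones, and the highest hippocampal value belonged to replicate 3, rich in choroid plexus markers. Without that library the log2 fold change was 0.91 (adjusted p = 0.0183), and without neocortical replicate 5 it was 0.82 (adjusted p = 0.0316), both by edgeR. With the replicate number as a block it was 0.71 (adjusted p = 0.0364 by edgeR), so these 3 settings change the call. Over all alternatives the adjusted p ran from 0.0183 to 0.154. For miR-324-null mice the log2 fold change was 0.34 (95% interval -0.48 to 1.15, adjusted p = 0.551), and leaving out single libraries moved it between 0.040 (without neocortical replicate 1) and 0.51 (without neocortical replicate 5). The tissue differences of *Cd300a* by edgeR were 0.15 (WT, adjusted p = 0.514; 0.31 with a length offset) and -0.05 (miR-324-null, adjusted p = 0.843), and those of *Cd300c2* were -0.17 (adjusted p = 0.381) and -0.18 (adjusted p = 0.439).

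The members' cells of origin were followed through marker genes. In whole tissue, fewer cells of a type and less RNA per cell cannot be told apart. All 14 microglial markers, among them *Csf1r* (the receptor for colony-stimulating factor 1, mean 42.1 TPM), were expressed, and edgeR called 0 of 14 between genotypes in either tissue. At an unadjusted p below 0.05 there were 3 in hippocampus and 0 in neocortex, and DESeq2 called 0. Their median log2 fold change was -0.12 (hippocampus) and -0.03 (neocortex), beside medians of 0.0012 and 0.0046 over all genes tested. Their summed level in hippocampus ran from 457 to 595 CPM (WT) and 467 to 501 CPM (miR-324-null), and in neocortex from 425 to 531 CPM and 379 to 528 CPM.

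*Cd300lf* was also expressed relative to those markers, as a description of the values by which it was chosen. For every 1000 CPM of summed microglial markers, hippocampal *Cd300lf* was at 0.636 to 3.45 CPM in the WT group against 4.11 to 5.64 CPM in the miR-324-null group. The neocortical ranges were 1.5 to 3.40 CPM and 5.12 to 6.63 CPM. On this scale *Cd300a* averaged 4.52 ± 0.765 CPM (WT) and 4.37 ± 0.556 CPM (miR-324-null) in hippocampus and 5.57 ± 0.768 and 4.54 ± 1.2 CPM in neocortex (SD, n = 5 each). *Cd300c2* averaged 6.36 ± 0.619 and 8.23 ± 1.54 CPM in hippocampus and 6.27 ± 0.736 and 7.68 ± 1.24 CPM in neocortex, higher for miR-324-null mice in both tissues. The ranges of both genes overlapped between genotypes in each tissue, and these ratios were not tested.

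Markers of other cells that can carry CD300 receptors differed in level, with those of monocytes, neutrophils and mast cells low and *Stab1* of the macrophage list above every CD300 gene. Of 9 markers of monocytes and neutrophils, led by the neutrophil proteins *S100a9* (1.99 TPM) and *S100a8* (1.60 TPM), 1 passed the filter, and it was not called. Their hippocampal sum was 1.56 to 3.79 CPM (WT) and 1.72 to 3.89 CPM (miR-324-null), and their neocortical sum 1.5 to 4.38 CPM and 2.14 to 4.81 CPM. The 5 mast cell markers summed to at most 0.949 CPM in any sample, and each was at 0 in at least 15 of 20 samples. The 8 markers of border-associated macrophages, led by *Stab1* (12.7 TPM) and *Cbr2* (2.15 TPM), summed in hippocampus to 22.3 to 27.1 CPM (WT) and 17.3 to 27.9 CPM (miR-324-null), and in neocortex to 21.0 to 26.4 CPM and 17.8 to 27.2 CPM. *Stab1* alone averaged 17.6 and 15.8 CPM in hippocampus and 17.0 and 16.4 CPM in neocortex (WT and miR-324-null), so these sums mostly follow it. The tested markers of this list had median log2 fold changes between genotypes of -0.39 (hippocampus) and -0.05 (neocortex). The 6 dendritic cell markers, led by *Flt3* (3.98 TPM), summed to 7.75 to 13.4 CPM and the 6 lymphocyte markers to 1.16 to 2.69 CPM over all samples. No mast cell or lymphocyte marker passed the filter for the genotype comparisons, so none of them could be called. In hippocampus and neocortex 4 and 5 border-associated macrophage markers and 1 and 2 dendritic cell markers were tested. Neither edgeR nor DESeq2 called any of the tested genes between genotypes. At an unadjusted p below 0.05 edgeR gave 1, among the border-associated macrophage markers in hippocampus. The part of these cells in the result for *Cd300lf* was not tested.

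For *Cd300lg* the endothelial markers were taken. All 9 were tested, led by *Ly6c1* (114 TPM) and the tight junction gene *Cldn5* (43.4 TPM), and edgeR and DESeq2 called 0 between genotypes (2 in hippocampus and 1 in neocortex at an unadjusted p below 0.05 by edgeR). In each tissue 7 of 9 had a negative log2 fold change between genotypes, with medians of -0.19 and -0.11. Between tissues 8 of 9 were positive for neocortex in both genotypes, the direction of the *Cd300lg* difference, with medians of 0.13 (WT) and 0.19 (miR-324-null). Of these, edgeR and DESeq2 called 1 for WT, *Esam* (an endothelial adhesion molecule; log2 fold change 0.37, adjusted p = 0.00333 by edgeR), and 0 for miR-324-null mice, with 2 in each at an unadjusted p below 0.05 by edgeR. These shares lie below the 36.1% and 27.4% of all genes called. The summed level of the 9 was 279 to 335 CPM in WT hippocampus and 286 to 347 CPM in WT neocortex. For every 1000 CPM of these markers *Cd300lg* was at 2.18 to 6.47 CPM in WT hippocampus and 3.17 to 7.5 CPM in WT neocortex, which overlapped, as did 2.66 to 6.40 CPM and 1.99 to 8.47 CPM in the same tissues of miR-324-null mice. Among 7 markers of venous and activated endothelium, led by *Ackr1* (56.5 TPM) and *Vcam1* (11.4 TPM), 0 of 5 tested were called by edgeR or DESeq2 between genotypes in either tissue (0 in hippocampus and 1 in neocortex at an unadjusted p below 0.05 by edgeR). Between tissues 0 of these 5 were called for either genotype by edgeR or DESeq2, with 0 at an unadjusted p below 0.05, beside the 36.1% and 27.4% of all genes called and the 44.1% and 38.5% below that p. The 5 red cell genes, led by *Hba-a1* (709.9 TPM) and *Hbb-bs* (507 TPM), were not called in these 4 comparisons either (0 at an unadjusted p below 0.05 by edgeR). All 5 had negative log2 fold changes in each comparison, with medians of -0.28 (hippocampus) and -0.20 (neocortex) between genotypes and of -0.54 (WT) and -0.51 (miR-324-null) between neocortex and hippocampus. Their part in the result for *Cd300lg* was not tested.

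None of the tested genes for proteins through which CD300 receptors signal was called between genotypes. Of 14 listed genes 13 were tested and 0 were called in either tissue by edgeR or DESeq2 (3 in hippocampus and 2 in neocortex at an unadjusted p below 0.05 by edgeR), with median log2 fold changes of -0.09 and -0.02. The adaptor genes *Tyrobp* (46.5 TPM) and *Fcer1g* (30.3 TPM) had log2 fold changes of -0.03 (SE 0.13) and -0.10 (SE 0.13) in hippocampus and -0.21 (SE 0.08) and -0.0044 (SE 0.11) in neocortex. *Ptpn11* (SHP-2, 61.6 TPM) had -0.17 (SE 0.07) and 0.03 (SE 0.06). *Grb2*, an adaptor protein and the most abundant of the list at 96.2 TPM, had 0.12 (SE 0.04) in each tissue (adjusted p = 0.355 and 0.255 by edgeR).

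Between the tissues 1 of the 13 signalling genes was called for WT and 3 for miR-324-null mice, each by edgeR and by DESeq2, shares below the 36.1% and 27.4% of all genes. *Pik3r1*, the regulatory subunit of phosphoinositide 3-kinase, was higher in neocortex by 0.72 on the log2 scale for WT (adjusted p = 9.17e-07 by edgeR) and for miR-324-null mice (adjusted p = 2.46e-05). *Inpp5d*, the phosphatase SHIP1, was higher by 0.30 (adjusted p = 0.0289) and *Myd88*, a Toll-like receptor adaptor, lower at -0.44 (adjusted p = 0.0112), both for miR-324-null mice by edgeR. Their tissue differences were not shown to differ between genotypes: the interaction terms of *Inpp5d* and *Myd88* were 0.30 (adjusted p = 0.880) and -0.46 (adjusted p = 0.748) by edgeR.

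Of 15 other inhibitory and activating myeloid receptors, 10 were tested and 0 were called between genotypes by edgeR or DESeq2 (3 in hippocampus and 1 in neocortex at an unadjusted p below 0.05 by edgeR). In each tissue 9 of the 10 had a negative log2 fold change, with medians of -0.23 for hippocampus and -0.11 for neocortex. *Sirpa*, an inhibitory receptor for CD47 that neurons also express, was the most abundant at 221 TPM. Between tissues edgeR called 2 of 10 for WT (*Sirpa* and *Siglech*, also called by DESeq2) and 1 for miR-324-null mice (*Sirpa*), where DESeq2 called *Sirpa* and *Cd33*, beside 36.1% and 27.4% of all genes by edgeR. *Sirpa* was higher in neocortex by 0.31 for WT (adjusted p = 6.32e-04) and 0.23 for miR-324-null mice (adjusted p = 0.00525) by edgeR. *Cd33*, an inhibitory sialic acid receptor, had 0.37 for miR-324-null mice (adjusted p = 0.0615 by edgeR). *Siglech*, a DAP12-coupled lectin that also stands in the microglial list, was lower in WT neocortex at -0.29 (adjusted p = 0.0397). *Fcgr3*, an activating Fc receptor at 18.02 TPM, had log2 fold changes of -0.13 and -0.35 between genotypes (adjusted p = 0.639 and 0.152). Of the microglial markers 4 of 14 were lower in WT neocortex than in WT hippocampus, *Tmem119* at -0.28, *Olfml3* at -0.34, *Siglech* and *Selplg* at -0.20, and 0 of 14 were called for miR-324-null mice, beside 36.1% and 27.4% of all genes, with 2 at an unadjusted p below 0.05 by edgeR and 0 by DESeq2. In both genotypes 12 of 14 had a negative log2 fold change (medians -0.15 and -0.10), and the interaction terms of these 4 genes were not called (smallest adjusted p = 0.966 by edgeR).

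**Figure D5:**
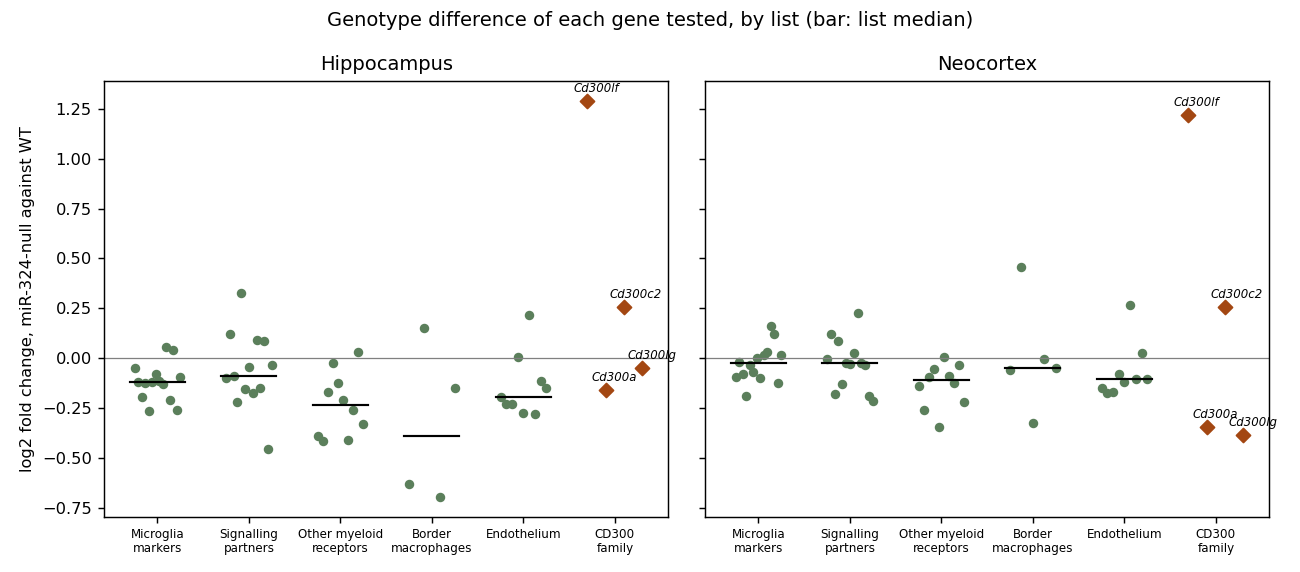
Log2 fold change between miR-324-null and WT of each gene tested in 5 gene lists (points, with the list median as a bar) and of the 4 CD300 genes tested (diamonds), in hippocampus and neocortex. Cd300lf lies at 1.29 and 1.22, the difference for which the family was chosen, and the 3 other CD300 genes lie between -0.39 and 0.26.

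The genes around the members were compared too. Within 200 kb of the cluster near *Cd300lf* there were 21 other protein-coding genes, of which 13 were tested in each tissue and 0 were called between genotypes by edgeR or DESeq2 (4 and 2 at an unadjusted p below 0.05 by edgeR). The hippocampal log2 fold changes had a median of -0.07 (range -0.49 to 1.01), and the neocortical ones a median of 0.04 (range -0.14 to 0.51). *Rab37*, which contains *Cd300lf* on the other strand and whose 3′UTR holds 2 matches to miR-324-5p, held 2.29 to 4.10 CPM (WT) and 2.78 to 4.63 CPM (miR-324-null) in hippocampus and 2.66 to 3.55 CPM and 3.33 to 5.44 CPM in neocortex, with overlap in both. Its log2 fold changes were 0.30 (SE 0.20, adjusted p = 0.621) and 0.51 (SE 0.16, adjusted p = 0.249) by edgeR, and its part in the result for *Cd300lf* was not tested. Around *Cd300lg*, 0 of 8 tested neighbours in hippocampus and 0 of 9 in neocortex were called by edgeR or DESeq2 (1 and 3 at an unadjusted p below 0.05 by edgeR).

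Likeness across samples was described within groups. After each group's mean was subtracted from the log2 CPM, the genes most like *Cd300lf* over 20 samples and 14588 genes were *Clk4* (Pearson's r = 0.843), *Prim1* (0.808) and *Aard* (0.806). Those most like *Cd300a* were *Ndufaf4* (0.780), *Npas2* (0.757) and *AC098880.2* (0.744). *Cd300lf* and *Cd300a* had r = 0.138 with each other, and *Cd300c2* had r = 0.109 with *Cd300lf*. These values share the same libraries and rest on few counts per gene. The most alike genes were picked as the highest of 14588 values, a choice that alone favours high r, and their r was not tested.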

How the data were processed

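RNA was sequenced from stranded mRNA libraries. Per the study's methods the authors quantified reads with kallisto against the mouse GRCm38 transcriptome (Ensembl release 92). The submitters' notes name GRCh38, but all transcript identifiers are mouse ones. The deposited values are estimated counts per transcript, which need not be whole, and TPM, which the authors' tool scales to a fixed total per sample. Of 115270 transcripts, 113580 were matched to GENCODE vM21 genes, and the 1690 unmatched ones held at most 0.556% of a sample's counts.

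Counts were summed per gene, rounded, filtered with edgeR's default rule and compared with edgeR 4.0.16's quasi-likelihood test (TMM scaling, R 4.3.3), with Benjamini-Hochberg adjustment over all genes tested and called at 0.05 or less. CPM are TMM-normalised over all 20 samples. Genotypes were compared within each tissue, tissues within each genotype, and their interaction over all samples. In a test on simulated data, 93.5 to 94.5% of 200 genes given a log2 fold change of 1 were recovered between genotypes (14676 and 14838 genes, of all levels), and 7.8% (hippocampus) and 2.1% (neocortex) of the genes called were false. The simulated spread between samples was set by a formula on the mean count and was not estimated from these samples. These shares therefore do not tell how often such a change in a CD300 gene would be found here. No pair of samples in a group held identical values. Replicates are separately labelled samples that the labels do not tie to separate animals, so p-values measure only the spread between these samples.

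The members and gene lists were chosen with earlier results of these data known. Named genes were all members, the listed genes called in any comparison of 2 groups (at most 4 per list) and the 2 of highest TPM per list, neighbours called or overlapping, and the 3 genes most like *Cd300lf* and *Cd300a* (log2 CPM with a prior count of 2). One gene that this rule names is not reported here. Alternatives were DESeq2 1.42.0, its size factors in edgeR, no filter, transcript length offsets, all samples in 1 fit, limma 3.58.1 on log2(TPM + 0.1), a replicate block and leaving out each replicate, and, added after seeing the data, coding transcripts alone and no choroid-rich libraries. The 3′UTR and k-mer searches used Python 3.11.15.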

Additional observations from a re-analysis of the deposited data

Results flagged for a closer look

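Of 48 groups of 5 values looked at (6 genes, 4 groups, CPM and TPM), 5 had 1 sample that stood far from the others of its group. Chance flags about 1 in 20 groups, and CPM and TPM of the same samples are not independent. WT hippocampal replicate 4 had 1.95 TPM of *Cd300a*, with the next sample at 0.898 TPM. In that library 1.91 counts were assigned to a transcript of *Cd300a* of only 467 bases, and on the CPM scale no sample of the group stood apart. MiR-324-null hippocampal replicate 3 had 0.903 TPM of *Cd300a*, with the next at 0.733 TPM.

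*Cd300lb* had 3 such values, each resting on 1 to 4 counts. WT neocortical replicate 3 had 0.263 CPM and 0.182 TPM, with the next samples at 0.0681 CPM and 0.0463 TPM. MiR-324-null hippocampal replicate 5 had 0.704 TPM of *Cd300lb* from 1 count.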

How the results depend on the processing

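The log2 fold change of *Cd300lf* between genotypes kept its direction in every alternative run, with ranges of 1.07 to 1.56 (hippocampus; 1.07 without WT replicate 3) and 1.08 to 1.36 (neocortex). The other members stayed uncalled between genotypes throughout. In WT, *Cd300lg* was called between tissues, 1 member in place of 0, with the replicate block (adjusted p = 0.0364 by edgeR) and without hippocampal replicate 3 or neocortical replicate 5, so leaving out replicates gave 0 to 1. Same-numbered samples were not taken as pairs, since not every pair's deviations correlated above 0.1: 1 of 5 pairs did between genotypes in each tissue, 1 (WT) and 3 (miR-324-null) between tissues (medians -0.102, 0.000293, 0.0647 and 0.134). As a hint from the data, 0 and 2 of 5 samples correlated best with their own number between genotypes, but 3 and 4 of 5 between tissues. The block moved the number of all genes called between genotypes to 4 in place of 17 (hippocampus) and 30 in place of 47 (neocortex).

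Small differences changed sign. *Cd300lg* between genotypes in the hippocampus was 0.0196 with limma on TPM, 0.21 without both choroid plexus libraries, and -0.20 to 0.19 without single replicates, positive without WT replicate 1 or 3 or miR-324-null replicate 4. *Cd300a* between tissues in miR-324-null samples was 0.10 with a length offset in edgeR or DESeq2, 0.16 with limma on TPM and -0.12 to 0.0139 without single replicates, positive without hippocampal replicate 3. With the offset in edgeR its other differences were larger, at -0.38 (hippocampus) and -0.58 (neocortex) between genotypes and 0.31 between tissues in WT, and with limma on TPM they were -0.30, -0.47 and 0.33. The CPM difference of *Cd300lb* ran from -0.0372 to 0.0286 between genotypes in the neocortex and from -0.0353 to 0.0336 between tissues in WT when single replicates were left out, and changed sign without WT neocortical replicate 3. That of *Cd300ld* between genotypes in the neocortex ran from -0.0308 to 0.0434, and in the hippocampus from -0.208 to -0.142, where the exact p was 0.0952 without any of 6 single replicates.

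The number of all genes called varied by more than 1.5 times. In the hippocampus it was 17, against 139 with DESeq2, 85 with DESeq2 and a length offset, 83 with all samples in 1 fit, 11 with limma on TPM and 10 to 31 with 1 replicate left out. In the neocortex it was 47, against 240 with DESeq2, 184 with DESeq2 and a length offset, 22 with limma on TPM, 30 with a length offset in edgeR and 27 to 566 with 1 replicate left out, the 566 without miR-324-null replicate 5. The causes were not tested. Counts of 0 to 79 per sample limit all members, and *Cd300lb* and *Cd300ld* most.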
